A study of Mus musculus with 4 samples.

Results

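The transcription factors that commit a macrophage precursor to the osteoclast lineage were followed in RNA sequencing libraries of mouse bone marrow cells. The group comprises 10 genes of the 21834 in the deposited count table, taken by symbol: the MiT/TFE family (Mitf, Tfe3, Tfeb and Tfec), the ETS factor PU.1 (Spi1), Cebpa and Cebpb, Myc, Prdm1 and Mef2c. All 10 had enough reads to be tested. One set of libraries is labelled as conditional knockout of Nat10 (Nat10 cKO) and was made from bone marrow derived monocytes after 3 days of osteoclast induction with RANKL. The other set is labelled WT and shares the tissue, the cell type and the induction. Each group holds 2 libraries. The sources used here give no Cre driver, no deleted exons, and neither strain, age nor sex of the mice. They also do not state whether libraries stem from different mice, and p-values therefore rest on a spread among libraries that may be technical.

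MITF, TFE3, TFEB and TFEC are basic helix-loop-helix leucine zipper proteins that bind DNA as homodimers or as heterodimers with each other, at E-box and M-box sequences. MITF acts with PU.1 on genes that osteoclasts need for resorption, and mice with dominant-negative Mitf alleles or without PU.1 lack functional osteoclasts. C/EBP factors prime myeloid progenitors, MYC supports the metabolic shift after RANKL, BLIMP1 (Prdm1) silences repressors of the osteoclast programme, and MEF2C regulates transcription in muscle, lymphoid and myeloid cells.

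The 10 factors showed no common direction. Cebpa, Myc and Tfeb rose in Nat10 cKO libraries, Tfec and Prdm1 fell, and the other 5 factors did not pass the test. Fold changes here are log2 values, Nat10 cKO minus WT, from the quasi-likelihood test of edgeR with Benjamini-Hochberg adjustment over the 11448 genes tested, and a gene is called at an adjusted p under 0.05. By that rule 3 of 10 factors were called higher and 2 lower, where 14.4% of all tested genes were called in each direction and 28.8% in either. Counts of called genes in the lists and marker sets below stand beside the same shares. The median log2 fold change of the 10 was -0.04, and that of all tested genes was 0.0075. Libraries of the groups did not overlap for 8 of the 10, against 63.6% of all tested genes. Both counts lie above those shares, but with 10 genes chosen with earlier results known they are a description, and nothing particular to the factors is read from them. Upper-quartile scaling turned the split over all genes to 2247 higher and 1110 lower, and scaling by library size to 2026 higher and 1252 lower, against 1652 higher and 1650 lower with TMM factors. With either of those scalings 4 factors were called higher and 1 lower.

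**Figure D1:**
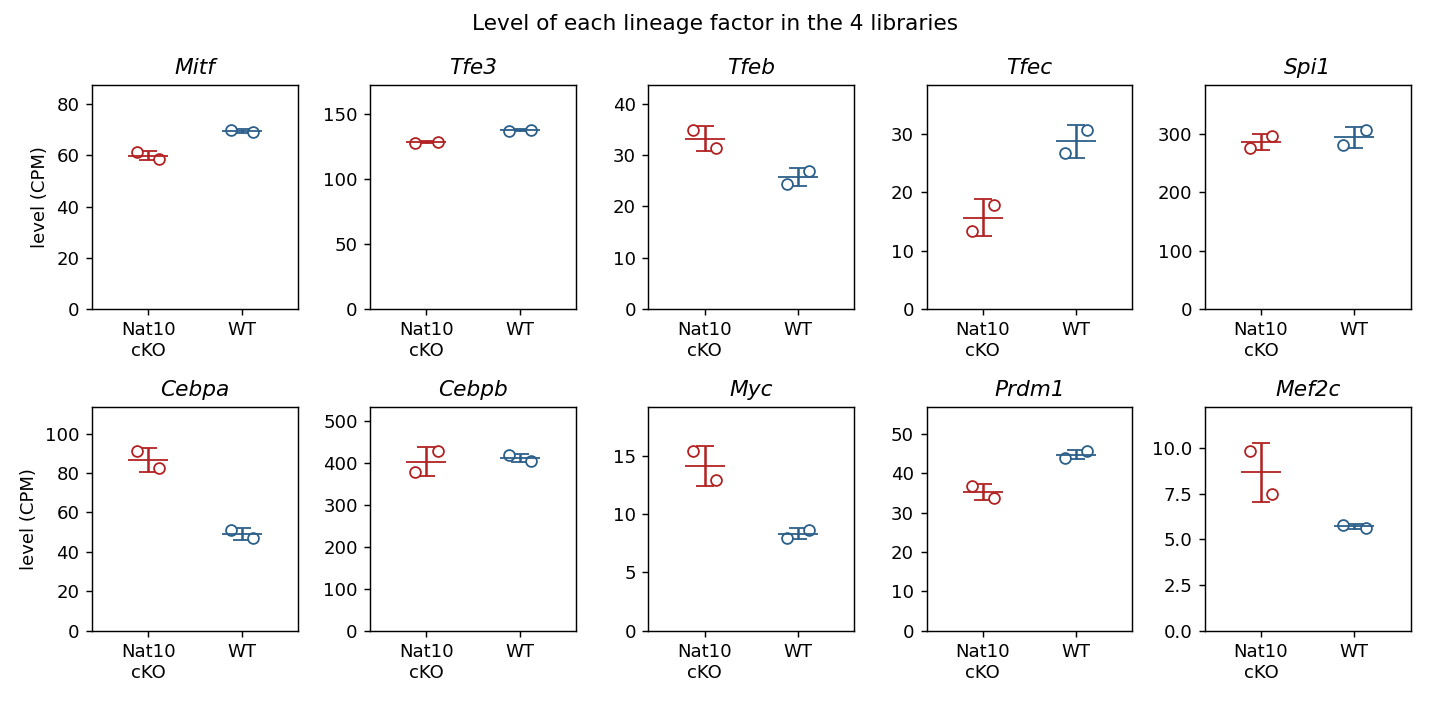
Level of each of the 10 factors in CPM (counts scaled by library size and TMM factor, axis from 0) in Nat10 cKO libraries (left) and WT (right), with open points for the libraries and bars for the mean ± SD of 2. Tfec was lower in both libraries labelled Nat10 cKO, Cebpa and Myc were higher in both, and Spi1 and Cebpb overlapped between the groups.

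Total counts were 11291993 and 14097638 in Nat10 cKO libraries and 10037338 and 13063821 in WT. Nat10, the targeted gene, stood at 15.9 and 14.3 CPM against 16.8 and 18.6 CPM in WT (log2 fold change -0.24, 95% interval -0.56 to 0.08, edgeR adjusted p = 0.263), so these whole-gene counts do not check the knockout, and the groups are named by their labels. Defining markers of the cultured cells were present: all 9 osteoclast and all 7 macrophage markers examined were tested, with summed levels of 6146 and 6876 against 4772 and 5053 CPM for the osteoclast markers, and 29848 and 33659 against 18615 and 20549 CPM for the macrophage markers. Most of the osteoclast sums came from Acp5 (2697 and 3128 against 1923 and 2023 CPM) and Mmp9 (2075 and 2284 against 1683 and 1815 CPM). Lyz2 made up most of the macrophage sums, at 23594 and 27535 against 14102 and 15928 CPM. Of the osteoclast markers 6 were called higher and 2, Calcr (-0.95) and Dcstamp (-0.42), lower. Of the macrophage markers 4 were called higher, while Fcgr1 (-0.13), Mertk (-0.03) and Itgam (0.11) did not pass. In bulk libraries fewer cells of a type and less RNA per cell cannot be told apart.

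The 300-base windows around transcription starts (250 bases before to 50 after, RefSeq) were searched for motifs of MiT/TFE, ETS and C/EBP factors. Motifs of BLIMP1 and MEF2C were not searched. The windows are on build GRCm38.p6, whereas the counts were made on GRCm39. The motifs were the E-box CACGTG, the M-box TCATGTG, the ETS core GAGGAA and the C/EBP core TTGCNNAA, on both strands, and the matches in the windows printed do not overlap one another. Windows were found for 8 of the 10 factors (not Spi1 or Myc), 15 in all. No E-box or M-box was found in any of them, 4 held the ETS core and 3 the C/EBP core. Of all 32851 windows 7.15% held the E-box, 3.77% the M-box, 28.3% the ETS core and 10.8% the C/EBP core. Windows of 3 called factors that have a single listed start are shown with matches in capitals. Tfec and Prdm1, the factors that fell, each hold an ETS core, beginning 34 bases after the start in Tfec and 156 bases before it in Prdm1, and Cebpa holds none of the 4 motifs. The other 2 windows with the ETS core belong to Mef2c, which had higher values in both Nat10 cKO libraries, so the core is not limited to factors that fell.
Tfec, chr6:16898392-16898691, minus strand: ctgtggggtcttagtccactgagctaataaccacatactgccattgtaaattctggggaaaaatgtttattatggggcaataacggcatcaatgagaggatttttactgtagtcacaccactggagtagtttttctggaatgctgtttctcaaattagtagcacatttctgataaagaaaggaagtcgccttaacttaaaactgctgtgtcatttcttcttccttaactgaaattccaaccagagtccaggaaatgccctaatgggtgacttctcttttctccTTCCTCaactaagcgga
Prdm1, chr10:44458699-44458998, minus strand: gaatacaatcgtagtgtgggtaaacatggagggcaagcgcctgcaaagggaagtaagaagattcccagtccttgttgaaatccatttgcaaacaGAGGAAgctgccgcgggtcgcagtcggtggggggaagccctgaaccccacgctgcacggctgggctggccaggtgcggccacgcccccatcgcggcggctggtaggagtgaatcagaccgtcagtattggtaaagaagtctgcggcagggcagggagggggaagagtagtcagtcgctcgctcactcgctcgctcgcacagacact
Cebpa, chr7:35119043-35119342, plus strand: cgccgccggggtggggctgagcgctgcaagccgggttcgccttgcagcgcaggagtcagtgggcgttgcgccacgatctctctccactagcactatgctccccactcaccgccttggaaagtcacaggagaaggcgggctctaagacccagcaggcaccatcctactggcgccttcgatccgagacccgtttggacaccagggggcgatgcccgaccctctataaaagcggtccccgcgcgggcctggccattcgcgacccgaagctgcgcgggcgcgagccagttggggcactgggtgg
A match is a run of letters and not a bound site, and its absence from these windows says nothing of binding elsewhere.

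Tfec (ENSMUSG00000029553, GRCm39 chr6:16833372-16898440), the MiT/TFE member whose expression is restricted mainly to macrophages, showed the largest fall among the 10. It had 13.4 and 17.8 CPM in Nat10 cKO libraries (155 and 256 counts), against 26.8 and 30.7 CPM in WT (262 and 392 counts). Both libraries labelled Nat10 cKO lay well below both WT libraries, although they also differed from each other. Its log2 fold change was -0.88 (SE 0.154, 95% interval -1.20 to -0.55, edgeR adjusted p = 0.000295), a level 0.545 times that of WT, and 11.8% of tested genes had a larger absolute change. The call held in all 11 alternative fits, with log2 fold changes of -1.11 to -0.70.

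Tfeb (ENSMUSG00000023990, GRCm39 chr17:48047955-48103344), the regulator of lysosome and autophagy genes, moved the other way. Its levels were 34.9 and 31.4 CPM in Nat10 cKO libraries and 24.4 and 26.9 CPM in WT, without overlap. By edgeR the difference was 0.37 on the log2 scale (SE 0.127, adjusted p = 0.0375). The call ended in DESeq2 (0.36) and without Nat10 cKO replicate 1 (0.28), WT replicate 1 (0.30) or WT replicate 2 (0.43), with adjusted p-values up to 0.258.

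Mitf (ENSMUSG00000035158, GRCm39 chr6:97784013-97998310), the factor whose mutations cause osteopetrosis in mice, did not pass. It had 61.1 and 58.8 CPM in Nat10 cKO libraries and 70.1 and 69.0 CPM in WT, lower in both but by a small margin. Its log2 fold change was -0.21 (SE 0.104, 95% interval -0.43 to 0.0039, edgeR adjusted p = 0.135). Tfe3 (ENSMUSG00000000134, GRCm39 chrX:7628799-7641441), which can stand in for Mitf in osteoclasts, had 128 and 129 CPM against 137 and 138 CPM in WT. That is a log2 fold change of -0.10 with an interval of -0.30 to 0.10 (edgeR adjusted p = 0.493). The SE of Tfe3 was 0.0969, and it was 0.162 without WT replicate 1 and 0.156 without WT replicate 2, so the interval depends on both WT libraries. With upper-quartile scaling Tfe3 was at -0.00097 and Mitf at -0.12. Neither gene was called in any of the 11 alternative fits.

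Levels were divided by exon length to set different genes side by side. The family summed to 32.3 and 32.1 CPM per kb in Nat10 cKO libraries and 35.2 and 36.3 CPM per kb in WT. Exon lengths came from GENCODE M21 and cover all annotated exons of a gene, not the transcripts expressed here. Shares and ranks between genes depend on that choice. Tfe3 was the most abundant member in every library, with 42.9% and 43.3% of the sum in Nat10 cKO libraries and 42.1% and 41.1% in WT, and Mitf came next with 30.6% and 29.5% against 32.1% and 30.7%. Tfec made up 7.41% and 9.92% of the sum in Nat10 cKO libraries and 13.6% and 15.1% in WT, while Tfeb made up 19.1% and 17.2% against 12.2% and 13.1%. In Nat10 cKO libraries the level of Tfeb was above that of Tfec, 6.16 and 5.54 against 2.39 and 3.19 CPM per kb. In WT Tfeb was below Tfec, 4.31 and 4.74 against 4.78 and 5.49 CPM per kb, with the nearest libraries close together. In CPM the WT libraries of these genes overlapped, at 24.4 and 26.9 for Tfeb and 26.8 and 30.7 for Tfec. The lack of overlap per kb therefore rests on the exon lengths, 5669 bases for Tfeb and 5594 for Tfec. Shares of a sum are tied to each other and are given as a description, with no test.

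**Figure D2:**
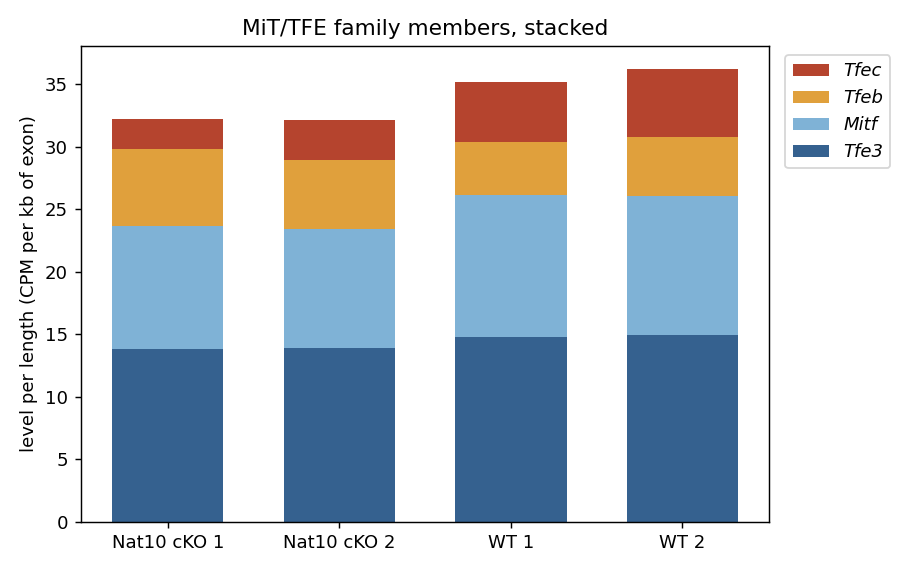
Level per length (CPM per kb of exon) of Tfe3, Mitf, Tfeb and Tfec, stacked from the bottom in that order, in each of the 4 libraries. The stacks reach 32.3 and 32.1 in Nat10 cKO libraries and 35.2 and 36.3 in WT, and the Tfec segment is the thinnest in Nat10 cKO libraries.

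Spi1 (ENSMUSG00000002111, GRCm39 chr2:90912735-90946101), which encodes PU.1, the ETS factor that macrophages and osteoclasts both require, did not pass the test. It had 276 and 296 CPM in Nat10 cKO libraries and 281 and 307 CPM in WT, and the groups overlapped. By edgeR the difference was -0.04 on the log2 scale (SE 0.0952, adjusted p = 0.798), with a 95% interval of -0.24 to 0.16. Without WT replicate 1 the value was -0.11 (SE 0.158), and without WT replicate 2 it was 0.017 (SE 0.152). It was also positive with upper-quartile or library size scaling, and it was called in none of the 11 alternatives.

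The C/EBP genes were apart. Cebpa (ENSMUSG00000034957, GRCm39 chr7:34818718-34821353), which directs granulocyte and macrophage differentiation and primes precursors for the osteoclast fate, rose more than any other of the 10. It had 91.0 and 82.5 CPM in Nat10 cKO libraries (1055 and 1184 counts), against 51.1 and 46.8 CPM in WT (500 and 598 counts). The groups were far apart relative to the spread within each. Its log2 fold change was 0.83 (SE 0.108, 95% interval 0.60 to 1.05, edgeR adjusted p = 1.39e-05), 1.77 times the WT level, and it was called in all 11 alternatives (0.75 to 0.92).

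Cebpb (ENSMUSG00000056501, GRCm39 chr2:167530835-167532338) is translated into activating and inhibitory isoforms whose ratio affects osteoclast formation, which these gene-level counts do not separate. It had 378 and 427 CPM in Nat10 cKO libraries and 418 and 404 CPM in WT. The WT values lay within the range of Nat10 cKO libraries, and the log2 fold change was -0.03 (SE 0.0950, 95% interval -0.23 to 0.17, edgeR adjusted p = 0.844). Its sign was positive under upper-quartile or library size scaling and without Nat10 cKO replicate 1. The interval of Cebpa lay above that of Cebpb. The Cebpb gene overlaps Tmem189, which lies on the other strand, and whether reads were counted by strand is not stated, so reads of the pair may be mixed.

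Myc (ENSMUSG00000022346, GRCm39 chr15:61857240-61862223), the proto-oncogene that RANKL induces in precursors, was low and rose. It had 15.4 and 12.9 CPM in Nat10 cKO libraries (178 and 185 counts), against 7.96 and 8.62 CPM in WT (78 and 110 counts). Both libraries labelled Nat10 cKO stood above both WT libraries. The log2 fold change was 0.76 (SE 0.182, 95% interval 0.38 to 1.14, edgeR adjusted p = 0.00408), and it was called in all 11 alternatives, with values of 0.62 to 0.88.

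Prdm1 (ENSMUSG00000038151, GRCm39 chr10:44313173-44404497), whose product BLIMP1 represses Irf8 and Bcl6 in osteoclast precursors, fell modestly. It had 36.7 and 33.8 CPM in Nat10 cKO libraries and 43.9 and 45.5 CPM in WT, without overlap. By edgeR the difference was -0.35 on the log2 scale (SE 0.115, adjusted p = 0.0300). The call was lost in 6 of 11 alternatives: with upper-quartile scaling (-0.25), with library size only (-0.28), in DESeq2 (-0.35), and without Nat10 cKO replicate 2 (-0.29), WT replicate 1 (-0.38) or WT replicate 2 (-0.33), with adjusted p-values up to 0.191.

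Mef2c (ENSMUSG00000005583, GRCm39 chr13:83652153-83815199) was the least abundant of the 10, at 9.83 and 7.52 CPM in Nat10 cKO libraries (114 and 108 counts) and 5.82 and 5.64 CPM in WT (57 and 72 counts). Its log2 fold change of 0.59 (SE 0.221, 95% interval 0.13 to 1.06) missed the threshold narrowly (edgeR adjusted p = 0.0528). The value was 0.38 without Nat10 cKO replicate 1 and 0.78 without Nat10 cKO replicate 2. It passed in 5 of 11 alternatives, which were upper-quartile scaling, library size only, no low-count filter, the replicate block and the set without Nat10 cKO replicate 2. Its adjusted p over the alternatives spanned 0.0158 to 0.313.

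**Figure D3:**
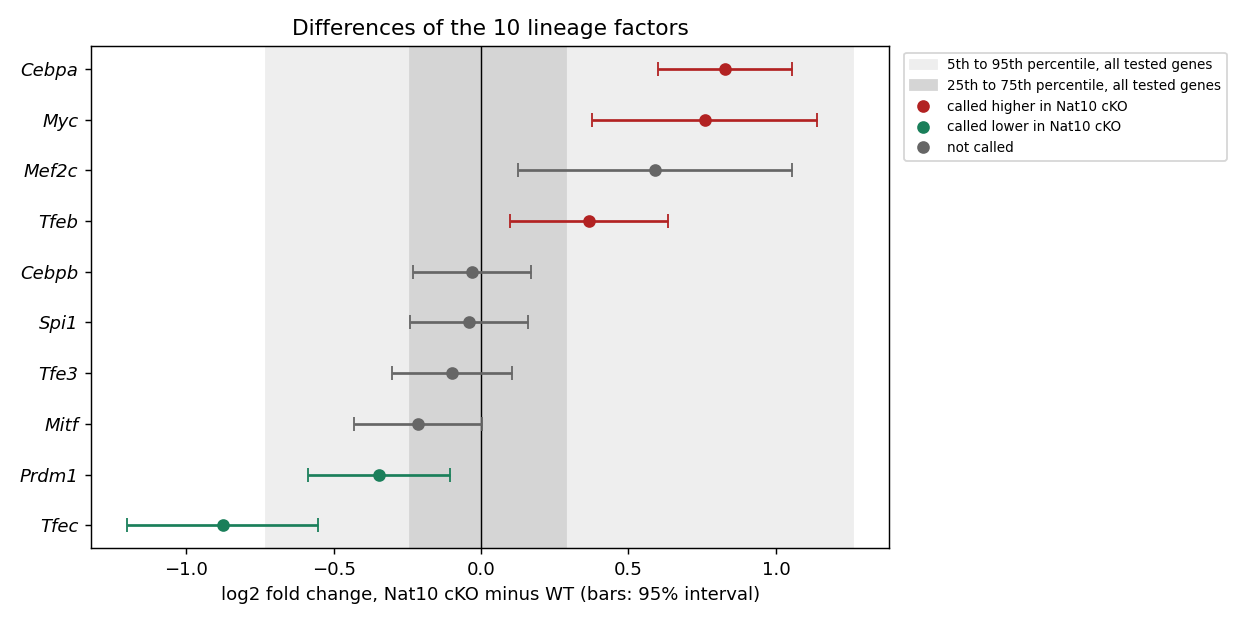
Log2 fold change (Nat10 cKO minus WT) of the 10 factors with 95% intervals, coloured by call, over grey bands for the middle of all 11448 tested genes (25th to 75th percentile, -0.24 to 0.29, and 5th to 95th percentile, -0.73 to 1.26). Tfec lies below the lower end of the wider band, and no factor lies above its upper end.

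In order of level per length, Cebpb stood first in Nat10 cKO libraries at 267 ± 22.9 CPM per kb (SD, n = 2), followed by Spi1 at 106 ± 5.17, Cebpa at 32.9 ± 2.28, Tfe3 at 13.9 ± 0.0554 and Mitf at 9.68 ± 0.268 CPM per kb. Below them came Prdm1 at 6.31 ± 0.363, Tfeb at 5.85 ± 0.438 and Myc at 5.20 ± 0.641 CPM per kb, whose libraries overlapped from neighbour to neighbour, then Tfec at 2.79 ± 0.565 and Mef2c at 0.552 ± 0.104 CPM per kb. In WT the order of the first 6 was the same, from Cebpb at 273 ± 6.42 and Spi1 at 109 ± 6.80 to Cebpa at 18.6 ± 1.13, Tfe3 at 14.9 ± 0.0720, Mitf at 11.2 ± 0.120 and Prdm1 at 8.01 ± 0.202 CPM per kb. Tfec at 5.14 ± 0.499 and Tfeb at 4.52 ± 0.307 CPM per kb followed, their means apart by little more than the larger SD. Before division by length the WT libraries of Tfec and Tfeb overlapped. Myc at 3.05 ± 0.169 and Mef2c at 0.365 ± 0.00820 CPM per kb came last. Cebpb and Spi1 exceeded 98.4% and 96.2% of tested genes in Nat10 cKO libraries and 98.4% and 96.1% in WT, while Mef2c exceeded 10.3% and 9.11%.

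Of 10 osteoclast genes taken as targets of MITF, PU.1 or both, 4 were called higher and 3 lower in Nat10 cKO libraries (median log2 fold change 0.16). Acp5, Atp6v0d2, Calcr, Ctsk, Itgb3 and Oscar are also among the osteoclast markers above, so the counts are not separate results. Over all tested genes 14.4% were called in each direction. Clcn7, the chloride-proton exchanger of the resorption lacuna, had 520 and 492 CPM in Nat10 cKO libraries and 818 and 845 CPM in WT. It fell by 0.72 on the log2 scale (SE 0.0912). Gpnmb, a transmembrane glycoprotein that is a MITF target in melanocytes and osteoclasts, fell by 0.56 (2687 and 2843 against 3921 and 4255 CPM), and Calcr, the calcitonin receptor, fell by 0.95, a call that ended without WT replicate 2 (-0.61). Atp6v0d2, a proton pump subunit of osteoclasts, rose by 0.75 (SE 0.0994), Oscar, a collagen receptor, by 0.68, Acp5, the tartrate-resistant acid phosphatase, by 0.56 and Itgb3, the integrin beta 3 chain, by 0.47. Ctsk (0.14), Tnfrsf11a (0.18) and Ostm1 (0.02) did not pass. Genes of this list went in both directions. In the same libraries Tfec was called lower and Tfeb higher, and Spi1 and Mitf did not pass. Any part of these factors in the changes was not tested.

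Start-site windows were found for 8 of these 10 targets, 12 in all, of which 1 held the E-box and 2 the M-box. These belong to Clcn7, which fell, and Acp5, which rose. The first Clcn7 window holds the E-box at 2 places, beginning 15 bases before and 8 bases after the start, and a further Clcn7 window holds an M-box. The last Acp5 window holds an M-box 90 bases before the start, written on the printed strand as its reverse complement. They are shown because these genes carry the letters of the MiT/TFE motifs and moved in opposite directions.
Clcn7, chr17:25133141-25133440, plus strand: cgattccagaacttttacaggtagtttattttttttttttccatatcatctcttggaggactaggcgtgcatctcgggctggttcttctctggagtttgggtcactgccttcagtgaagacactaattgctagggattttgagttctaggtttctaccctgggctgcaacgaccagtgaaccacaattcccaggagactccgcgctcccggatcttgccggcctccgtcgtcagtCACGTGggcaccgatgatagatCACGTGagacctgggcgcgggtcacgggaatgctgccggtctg
Acp5, chr9:22130549-22130848, minus strand: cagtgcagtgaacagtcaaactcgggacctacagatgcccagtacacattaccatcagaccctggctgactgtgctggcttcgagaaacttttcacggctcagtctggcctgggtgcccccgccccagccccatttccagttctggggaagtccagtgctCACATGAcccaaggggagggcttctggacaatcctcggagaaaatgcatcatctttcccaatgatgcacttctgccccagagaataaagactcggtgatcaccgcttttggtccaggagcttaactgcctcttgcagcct

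The Rag GTPases, the Ragulator complex, folliculin and mTOR hold MiT/TFE factors in the cytoplasm when nutrients are plentiful. The list examined joins this system with Tsc1, Tsc2 and Rheb. Of its 16 tested genes 1 rose and 0 fell (edgeR), and the median was 0.03. At an unadjusted p under 0.05 there were 2 higher and 0 lower, and DESeq2 called 1 higher and 0 lower. The gene that rose was Rragd, a Rag subunit that MiT/TFE factors induce, with 47.2 and 36.5 CPM in Nat10 cKO libraries against 24.7 and 28.4 CPM in WT (log2 fold change 0.65, SE 0.138, edgeR adjusted p = 0.00165). Mtor (0.37, adjusted p = 0.0976) and Rraga (0.24, adjusted p = 0.213) were next in the order of p-values from the edgeR fit. Single libraries moved both: Mtor was at 0.24 without Nat10 cKO replicate 1 or WT replicate 2, and Rraga was at 0.089 without Nat10 cKO replicate 2 and 0.13 without WT replicate 1. The count of genes called higher reached 2 with upper-quartile scaling and with the replicate block, and 3 without Nat10 cKO replicate 2, with Mtor called in each of these fits. Of the 16 start-site windows of these genes 6 held the E-box, those of Fnip1, Rragb, Rragc, Lamtor1, Lamtor4 and Rheb. Of these Rragb was too low to test and the others were not called. The window of Rragd, the gene that rose, held none of the motifs searched.

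Among co-factors and kinases that act with MITF and PU.1, 0 of 13 rose and 2 fell (edgeR). At an unadjusted p under 0.05 there were 1 higher and 3 lower, and DESeq2 called 0 higher and 1 lower. Crebbp, a histone acetyltransferase, fell by 0.67 (105 and 72.5 against 165 and 119 CPM), a call that DESeq2 did not make (-0.68), and Smarca4, the BRG1 chromatin remodeller, fell by 0.34. The call of Smarca4 ended with upper-quartile scaling (-0.24), with library size only (-0.27) and without Nat10 cKO replicate 2 (-0.19), WT replicate 1 (-0.25) or WT replicate 2 (-0.43). Gsk3b, a kinase that phosphorylates MiT/TFE factors, had a log2 fold change of -0.34 that did not pass. It was called without a low-count filter, with the replicate block and without Nat10 cKO replicate 1 (-0.66).

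**Figure D4:**
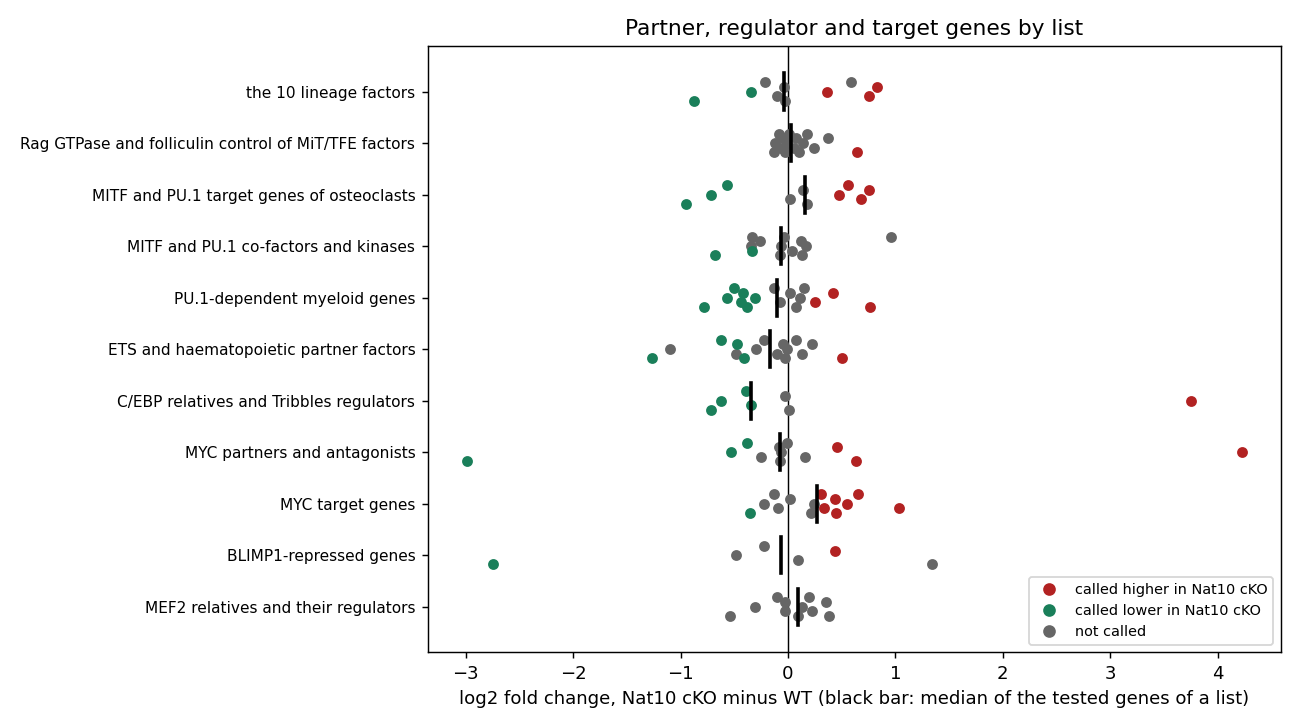
Log2 fold change (Nat10 cKO minus WT) of each tested gene in the list of the 10 factors and in 10 lists of partners, regulators and targets, coloured by call, with a black bar for the median. The MYC targets lie mostly to the right of 0, and the list of C/EBP relatives and Tribbles regulators mostly to the left. The points furthest out are Mxd3, Trib2, Mycl and Ciita.

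Genes that depend on PU.1 in myeloid cells included 3 of 16 that rose and 7 that fell (median -0.10), against 14.4% of all tested genes in each direction. Csf1r, Fcgr1, Itgam and Lyz2 of this list are also among the macrophage markers above. Csf2rb, the shared beta chain of the GM-CSF and interleukin-3 receptors, had 496 and 440 CPM in Nat10 cKO libraries and 848 and 765 CPM in WT, a log2 fold change of -0.79 (SE 0.0976). Csf3r, the G-CSF receptor, fell by 0.56. Lyz2, the lysozyme of macrophages, rose by 0.77 (23594 and 27535 against 14102 and 15928 CPM), and the integrin chain Itgb2 rose by 0.42. Csf1r, the M-CSF receptor, rose by 0.25, but passed neither without WT replicate 1 (0.24) nor without WT replicate 2 (0.26), and the call of Itgb2 ended without WT replicate 1 (0.35). The genes called lower numbered 4 with upper-quartile scaling, with library size only or without WT replicate 1, and without WT replicate 1 the genes called higher numbered 1.

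Of 16 tested ETS and haematopoietic partner factors 1 rose and 4 fell (median -0.17), against 14.4% of all tested genes in each direction. Spic, a PU.1 relative that specifies iron-recycling macrophages, had 41.7 CPM in both libraries labelled Nat10 cKO and 97.1 and 103 CPM in WT. It fell by 1.27 on the log2 scale (SE 0.105, edgeR adjusted p = 4.72e-08), more than Tfec. Runx1, a partner of PU.1 in haematopoiesis, fell by 0.62 (SE 0.104) and Ikzf1, the Ikaros factor, fell by 0.47, a call that ended without WT replicate 2 (-0.43). Ets1 rose by 0.50 but was not called in DESeq2 (0.50) or without Nat10 cKO replicate 1 (0.40), WT replicate 1 (0.39) or WT replicate 2 (0.62). The genes called lower numbered 2 without WT replicate 2 and 7 with the replicate block.

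A further list joined relatives of Cebpa with Cebpz, placed there by its name, and the Tribbles pseudokinases. Of the latter, TRIB1 and TRIB2 direct C/EBP alpha to degradation. In this list 1 of 7 tested genes rose and 4 fell (median -0.34). Over all tested genes 14.4% were called in each direction. Trib2 had 34 and 31 counts in Nat10 cKO libraries, against 3 and 1 counts in WT. Its log2 fold change was 3.75, with a wide 95% interval of 2.39 to 5.11 that reflects the few WT counts (edgeR adjusted p = 0.000248). Trib3, a stress-induced relative, fell by 0.71 (47.0 and 44.0 against 69.6 and 79.4 CPM), and Cebpz, named for a CCAAT box, fell by 0.62 (SE 0.117). Trib1 had a log2 fold change of 0.01. The genes called lower numbered 2 in DESeq2, with upper-quartile scaling, with library size only and without either WT library.

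Among partners and antagonists of MYC 3 of 12 rose and 3 fell (median -0.07). Mycl, the lung-type MYC relative that dendritic cells also express, had 9 and 14 counts in Nat10 cKO libraries, against 59 and 103 in WT, and fell by 2.99 on the log2 scale (SE 0.345, edgeR adjusted p = 3.24e-06), the opposite direction to Myc. The MAX-binding repressors Mxi1 and Mxd4 rose by 0.63 (SE 0.119) and 0.46, and the call of Mxd4 ended without WT replicate 2 (0.41). Mxd3, singled out after its values were seen, had 14 and 12 counts in Nat10 cKO libraries and 0 and 1 in WT. Max, the obligate partner of MYC, had a log2 fold change of -0.25 and did not pass. The genes called lower numbered 1 in DESeq2 and without Nat10 cKO replicate 2.

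Of 14 genes taken as MYC targets 7 rose and 1 fell (median 0.27), where 14.4% of all tested genes were called in each direction. Ccnd2, the cyclin D2 gene, had 86.1 and 70.1 CPM in Nat10 cKO libraries and 40.4 and 36.0 CPM in WT, a log2 fold change of 1.03 (SE 0.122, edgeR adjusted p = 4.22e-06). Odc1, the first enzyme of polyamine synthesis, rose by 0.66, and Ldha, lactate dehydrogenase A, by 0.44, a call that ended without WT replicate 1 (0.39). Nop56, a nucleolar protein gene, fell by 0.35, and that call ended with upper-quartile scaling (-0.26), with library size only (-0.29), in DESeq2 (-0.36) and without WT replicate 1 (-0.23). Without WT replicate 1 the genes called higher numbered 2, and without WT replicate 2 they numbered 4.

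Among genes that BLIMP1 represses, Irf8, a repressor of osteoclast formation, had 84.0 and 74.7 CPM in Nat10 cKO libraries and 92.9 and 92.5 CPM in WT. Its log2 fold change of -0.23 did not pass in the edgeR fit (adjusted p = 0.116), but it did with the replicate block and without Nat10 cKO replicate 1 (-0.32). Ciita, the transactivator of MHC class II genes, had 10 and 7 counts against 46 and 55 counts in WT and fell by 2.75 on the log2 scale (SE 0.416).

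MEF2 relatives and their regulators had 0 of 11 genes called in either direction by edgeR (median 0.10). At an unadjusted p under 0.05 there were 2 higher and 1 lower, and DESeq2 called 0 in either direction. The smallest p-values belonged to the class IIa histone deacetylases, which bind MEF2 proteins and repress their targets: Hdac7 at 0.39 (edgeR adjusted p = 0.0657), Hdac4 at -0.31 (0.0957) and Hdac5 at 0.36 (0.103). Under the replicate block 2 genes were called higher and 1 lower. The genes called higher also numbered 2 with upper-quartile scaling and without Nat10 cKO replicate 2, and 1 with library size only, without a low-count filter and without WT replicate 1.

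Markers of other cell types that express these factors moved with the groups. Of 11 tested stromal and osteoblast markers 10 were called higher, with summed levels of 1024 and 988 CPM in Nat10 cKO libraries and 265 and 254 CPM in WT, and Bglap was at 0 in all. Of 7 tested neutrophil markers 5 were higher and 1 lower, with sums of 809 and 910 against 500 and 486 CPM. The marker that fell was Mmp8 (-0.84), and Camp did not pass (-0.04). Elane and Mpo, which mark granulocyte precursors that use Cebpa, were too low to test and were picked after their values were seen. They had 9 to 17 counts in Nat10 cKO libraries and 0 to 3 in WT. Among B and plasma cell markers 1 of 4 tested was higher, with sums of 13.9 and 14.1 against 5.92 and 6.58 CPM and Mzb1 at 0. That gene was Ebf1, at 8.54 and 8.57 CPM in Nat10 cKO libraries against 2.35 and 2.82 CPM in WT. It made up the larger part of the Nat10 cKO sums, and Cd79a, Cd79b and Pax5 did not pass. The part of these cell types in the rises of Cebpa, Myc and Tfeb and in the higher values of Mef2c was not tested.

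Among adipocyte markers 1 of 2 tested was higher, with sums of 110 and 107 against 58.8 and 63.0 CPM that came almost wholly from Fabp4, which macrophages also express. Adipoq and Lep were at 0 in every library. Melanocytes and mast cells, which are among the other known sites of Mitf, were nearly absent by their markers. Tyr, Tyrp1, Dct and Mlana had 0 counts in every library, as had Cpa3, Fcer1a, Tpsb2 and Mcpt4. The melanocyte list summed to 0.862 and 0.348 against 0 and 0.157 CPM. The mast cell and basophil list summed to 4.05 and 6.76 against 7.96 and 6.11 CPM. Skeletal muscle markers summed to 1.03 and 0.627 against 0.204 and 0.862 CPM, with Myod1 at 0. The T and NK cell list summed to 1.98 and 2.23 against 4.39 and 5.09 CPM, with Cd3g, Cd3d and Nkg7 at 0. That sum was mostly Cd4 (1.72 and 1.67 against 4.08 and 4.86 CPM), the 1 gene of the list tested, which fell and which myeloid cells can also express, while Klrb1c had 3 and 6 counts against 0 and 2. The endothelial list summed to 19.1 and 20.1 against 74.8 and 72.0 CPM, through Kdr and Vwf, which fell. The third endothelial gene tested, Pecam1, had 18 and 44 counts against 22 and 17 (log2 fold change 0.42, edgeR adjusted p = 0.521), Emcn had 1 and 3 against 0 and 1, and Cdh5 had at most 4. The hepatocyte list summed to 0.259 and 0.975 against 49.5 and 22.6 CPM, mostly Alb. Their part in the falls of Tfec and Prdm1 was not tested.

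**Figure D5:**
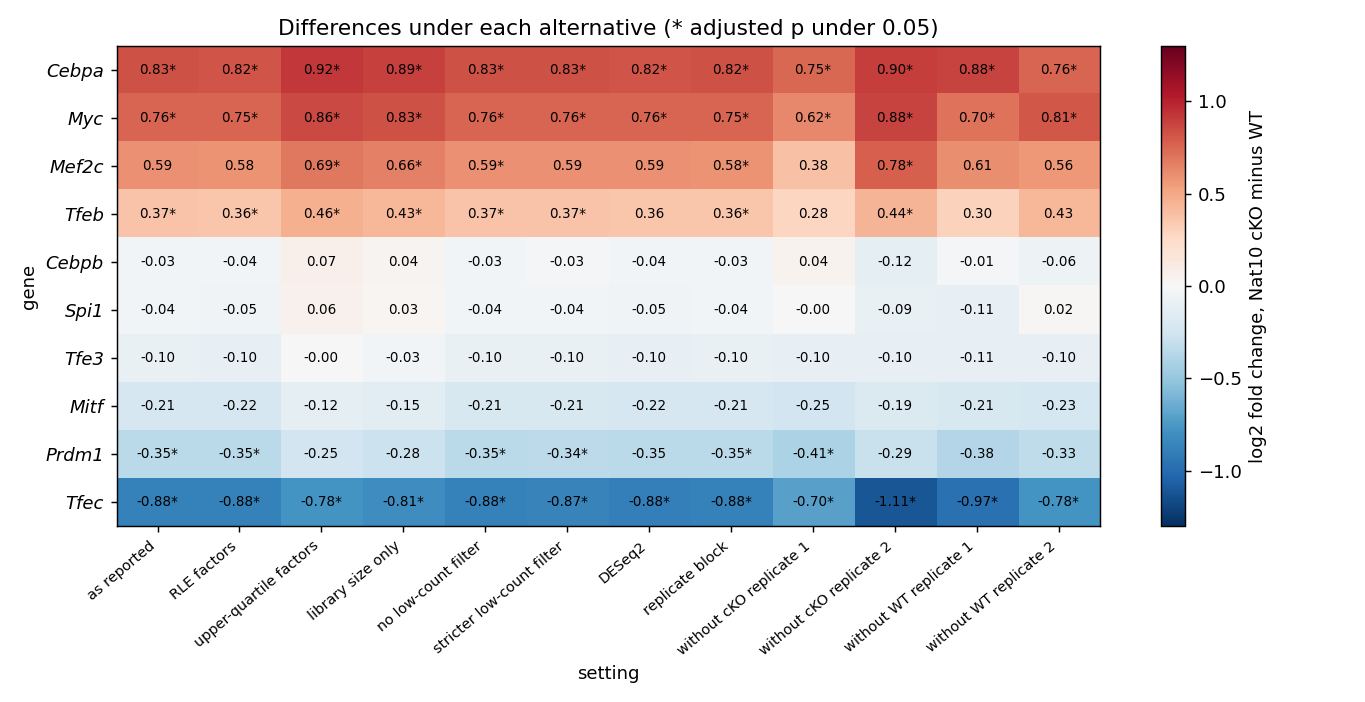
Log2 fold change (Nat10 cKO minus WT) of the 10 factors as reported and under each of 11 alternative settings, with an asterisk at an adjusted p under 0.05. Cebpa, Myc and Tfec carry it in every column, Tfeb and Prdm1 lose it in 4 and 6 columns, and Mef2c gains it in 5.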

How the data were processed

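The authors deposited raw counts per gene, whole numbers for protein-coding genes with no normalization, per the file headers. Per the submitters' processing notes, fastp 0.20.0, STAR 2.7.9a and featureCounts 2.0 were used with build mm39 (GRCm39). No source used here gives the strand setting or the annotation release. Cells were washed with cycloheximide and ribosomal RNA was depleted, per the labels' protocols.

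Counts were grouped by the genotype label, filtered with filterByExpr (11448 of 21834 genes kept), scaled with TMM factors (1.03 and 1.02 for Nat10 cKO, 0.976 and 0.978 for WT) and tested two-sided by quasi-likelihood (edgeR 4.0.16, R 4.3.3) with a model of group alone, and p-values were adjusted by Benjamini-Hochberg. An SE is the absolute log2 fold change over the square root of F. DESeq2 1.42.0 was among 11 alternatives. Replicates differed by more than sampling noise (chi-square per gene 11.2 for Nat10 cKO and 6.16 for WT over genes with at least 10 counts). Levels per length used exon lengths of GENCODE M21, found for 11435 tested genes.

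The members and lists were chosen with earlier results of these data known. Genes named are the 10 factors, Nat10, up to 3 genes per list with the smallest p, and called genes that went against the majority of their list. Other genes named were chosen after their values were seen. A result among the BLIMP1-repressed genes is not reported here, so no counts are given for that list.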

Additional observations from a re-analysis of the deposited data

How the results depend on the processing

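Of the 10 factors, Cebpa, Myc and Tfec were called in the same direction in all 11 alternative fits, and Mitf, Tfe3, Spi1 and Cebpb were called in none. The factors called lower numbered 1, against 2, with upper-quartile scaling, with library size only and in DESeq2, and 1 to 2 with a library left out. Those called higher numbered 2 to 4 with a library left out, against 3. Values of Spi1 turned positive with upper-quartile scaling (0.058), library size only (0.026) and without WT replicate 2 (0.017), as did those of Cebpb with upper-quartile scaling (0.067), library size only (0.035) and without Nat10 cKO replicate 1 (0.043). With a library left out their values spanned -0.11 to 0.017 for Spi1 and -0.12 to 0.043 for Cebpb. Upper-quartile scaling moved the median of all tested genes to 0.11. Relative to that shift Spi1 and Cebpb remained below the median. Over all genes DESeq2 called 1065 higher, and with a library left out 864 to 1576 were called higher and 973 to 1925 lower, the lowest counts without WT replicate 2. The causes were not tested. The replicate numbers are not stated to pair libraries. Deviations of same-numbered libraries correlated at 0.15 across genes, and a fit with the replicate block called 2126 genes higher and 2175 lower, with 4 of the 10 factors higher and 2 lower. With 78 to 110 WT counts for Myc and 57 to 72 for Mef2c, counting error is largest for these factors.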
